A study of Mus musculus with 49 samples.

Results

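Gastrokines, intrinsic factor and the trefoil factors of the stomach were followed through 25 RNA-seq libraries of mouse small-intestinal crypt cells. The 6 genes are Gkn1, Gkn2, Gkn3, Gif, Tff1 and Tff2, and each was read from the deposited table of counts for 24062 gene symbols. They were chosen by their CPM in these same libraries, so their levels and fold differences are given as description with no test. All 6 were in the table, and 5 of the 6 passed the filter on low counts, Tff1 being the gene that did not. Levels are CPM, a gene's counts scaled to a common library total, after TMM scaling, which corrects that total for composition. Levels of different genes are not compared, because transcript lengths were not used here.

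Gastrokines are small secreted proteins with a BRICHOS domain. Gkn1 and Gkn2 are made by the surface mucous cells of the stomach, and Gkn3 by mucous cells of its glands; Gkn3 is also among the genes often listed for mouse intestinal stem cells. Gif encodes gastric intrinsic factor, which binds vitamin B12 in the gut lumen so that the cubilin and amnionless receptor of the ileum can take it up; in the mouse it is made by chief cells. Trefoil factors are small peptides secreted with mucus: Tff1 by stomach surface cells, Tff2 by gland mucous cells and duodenal Brunner glands, and Tff3 by intestinal goblet cells.

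The cells came from the proximal intestine of adult mice on a B6;129 mixed background. Cells carrying Lgr5EGFP-IRES-CRE-ERT2 and sorted for high GFP (3 libraries, called Lgr5-GFP-Cre) and GFP+ cells of Lgr5EGFP-DTR mice (2 libraries, Lgr5-GFP-DTR) stand for stem cells, and GFP+ cells of Bmi-1GFP/+ mice for the Bmi1-GFP population (3 libraries). A single further Bmi1-GFP library came from mice given 10 Gy of whole-body radiation and killed 36 h later. From wild-type mice, CD24-high cells were sorted as enteroendocrine cells when UEA-negative and as Paneth cells when UEA-high (2 libraries each). CD274+CD69+ cells were sorted from untreated wild-type mice, from mice labelled wild type that received 50 µg/kg diphtheria toxin (DT) repeatedly, and, as goblet cells, from wild-type mice 115 h after the first of 2 doses of DBZ, an inhibitor of Notch signalling (2 libraries each). The labels name no toxin receptor allele for the DT mice. Whole crypts without a sort made up 3 more groups of 2 libraries. Enterocyte progenitors were crypts of Atoh1 F/F; Villin-CRE mice 3 weeks after tamoxifen (1 mg on 5 days), with Atoh1, the secretory lineage factor, deleted in intestinal epithelium. DBZ secretory progenitors were crypts of Atoh1 F/F mice without Cre, taken 38 h after DBZ (48 mg/kg at the start and again at 12 h). Rbpj secretory progenitors were crypts of Rbpj F/F; Villin-CRE mice on day 3 of a protocol with 2 mg tamoxifen over 2 days, Rbpj being the transcription factor through which Notch acts. Villin-driven Cre acts in the whole intestinal epithelium, and the labels do not say whether mice were pooled.

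Library totals ran from 11179085 to 27371108 counts, so a count of 0 allows up to between 0.0953 and 0.318 CPM (3 counts), counting error only. Both Rbpj libraries and replicate 1 of the CD274+CD69+ controls were made with a TruSeq kit and the other 22 libraries with a SMART-Seq kit. Olfm4, a stem cell gene, was at 4126 to 5802 CPM in Lgr5-GFP-Cre cells and at 1.73 and 4.12 CPM in goblet cells. Lyz1, a Paneth cell gene, was at 116254 and 91800 CPM in Lgr5-GFP-DTR cells against 22502 to 27150 CPM in Lgr5-GFP-Cre cells. Lgr5 was at 121 and 76.1 CPM in Paneth cells, within or above its range in Lgr5-GFP-Cre cells (66.3 to 93.9 CPM). Genes of the other cell type were thus detected in both the stem cell and the Paneth cell sorts.

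The 3 gastrokine genes lie side by side. In RefSeq coordinates on GRCm38.p6 (mm10), Gkn1 spans chr6:87345653-87350915, Gkn2 chr6:87373365-87379494 and Gkn3 chr6:87383319-87388935. The whole cluster takes 43.283 kb, Gkn2 and Gkn3 are 3824 bp apart, and Gkn1 and Gkn2 are 22449 bp apart. Gkn2 is read in the opposite direction to its neighbours. The trefoil genes form a second cluster of 39.755 kb, with Tff3 at chr17:31125306-31129611, Tff2 at chr17:31141062-31144282 and Tff1 at chr17:31161395-31165060. Gif, which RefSeq calls Cblif, spans chr19:11747543-11763447. Annotated long noncoding RNAs overlap Gif (Gm46655, by 2505 bp) and Tff1 (Gm15318, by 1658 bp). The strand setting of the counting is not given in the sources used here, so reads of these pairs cannot be told apart.

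Promoter windows are shown for the 4 members with an entry in the RefSeq promoter table because the 3 gastrokine neighbours had unlike levels across the libraries. Each window runs 5′ to 3′ on the strand of its gene, from 250 bases before the start that table uses to 50 after it. For Gif that start lies inside the gene span given above, and for the gastrokines it is an end of the span. Capitals mark matches, on either strand, to GATAAG, the core that GATA factors bind, and to the TATA box letters TATAAA.
Gkn1: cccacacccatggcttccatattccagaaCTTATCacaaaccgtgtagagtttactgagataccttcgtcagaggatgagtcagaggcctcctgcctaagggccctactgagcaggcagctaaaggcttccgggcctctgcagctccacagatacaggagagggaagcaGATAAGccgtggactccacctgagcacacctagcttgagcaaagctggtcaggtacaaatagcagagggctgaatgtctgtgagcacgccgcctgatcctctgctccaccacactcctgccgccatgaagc
Gkn2: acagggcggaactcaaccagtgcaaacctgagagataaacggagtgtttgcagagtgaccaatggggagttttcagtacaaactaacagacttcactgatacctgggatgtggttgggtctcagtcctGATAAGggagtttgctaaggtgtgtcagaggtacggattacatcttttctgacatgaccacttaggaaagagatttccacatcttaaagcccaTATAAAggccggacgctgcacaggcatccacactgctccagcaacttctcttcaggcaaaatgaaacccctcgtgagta
Gkn3: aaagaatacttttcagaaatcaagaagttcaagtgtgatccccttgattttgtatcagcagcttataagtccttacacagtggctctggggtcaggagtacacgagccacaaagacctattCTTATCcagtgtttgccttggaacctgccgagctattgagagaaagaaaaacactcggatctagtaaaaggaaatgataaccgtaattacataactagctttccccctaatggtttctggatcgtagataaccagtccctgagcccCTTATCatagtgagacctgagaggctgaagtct
Gif: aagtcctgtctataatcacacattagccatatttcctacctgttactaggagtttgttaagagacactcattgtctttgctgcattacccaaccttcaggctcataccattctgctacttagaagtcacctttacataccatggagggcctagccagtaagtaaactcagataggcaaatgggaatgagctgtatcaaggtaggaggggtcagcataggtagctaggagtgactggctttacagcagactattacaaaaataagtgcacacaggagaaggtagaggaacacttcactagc

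The Gkn1 window is chr6:87350866-87351165 on the minus strand, the Gkn2 window chr6:87373115-87373414 on the plus strand, the Gkn3 window chr6:87388886-87389185 on the minus strand and the Gif window chr19:11747309-11747608 on the plus strand. A GATAAG match was found in each of the 3 gastrokine windows and in 7.44% of all 32851 RefSeq windows. The Gkn1 window held it 81 bases before the start and, reversed, 221 bases before. The Gkn2 window held it 122 bases before the start. The Gkn3 window held it reversed, 129 bases before and 17 bases after the start. TATAAA was matched only in the Gkn2 window among these 4, 29 bases before the start, and in 13.62% of all windows. CTTTGAT (a TCF/LEF core) and GTGGGAA (an RBPJ core), searched on both strands, had no match in these 4 windows and were in 3.73% and 6.38% of all windows. No 2 of these motifs overlapped. A match describes letters only and is no evidence of binding.

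Gkn3 was highest in the Lgr5-GFP cells, and it was detected in 23 of the 25 libraries. Its level was 165.6, 102.8 and 145.1 CPM in Lgr5-GFP-Cre cells and 80.5 and 119.0 CPM in Lgr5-GFP-DTR cells. Enterocyte progenitor crypts followed at 34.8 and 77.7 CPM. Every library outside these 3 groups was lower than every library within them. Enteroendocrine cells had 25.9 and 17.7 CPM, Paneth cells 23.0 and 18.9 CPM, and Bmi1-GFP cells 6.64, 7.92 and 18.8 CPM.

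Gkn3 was lower still in the remaining groups. Rbpj-deleted crypts had 2.19 and 9.09 CPM and DBZ-treated crypts 1.83 and 0.65 CPM. CD274+CD69+ cells had 4.57 and 5.09 CPM without treatment and 3.72 and 3.89 CPM after DT. These 4 groups lay below all enteroendocrine and Paneth libraries. The irradiated Bmi1-GFP library held 13 Gkn3 counts, or 0.723 CPM, below all 3 unirradiated Bmi1-GFP libraries, and both goblet libraries held 0 counts. In bulk samples such as these, fewer Gkn3-expressing cells and less Gkn3 RNA per cell cannot be told apart.

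**Figure D1:**
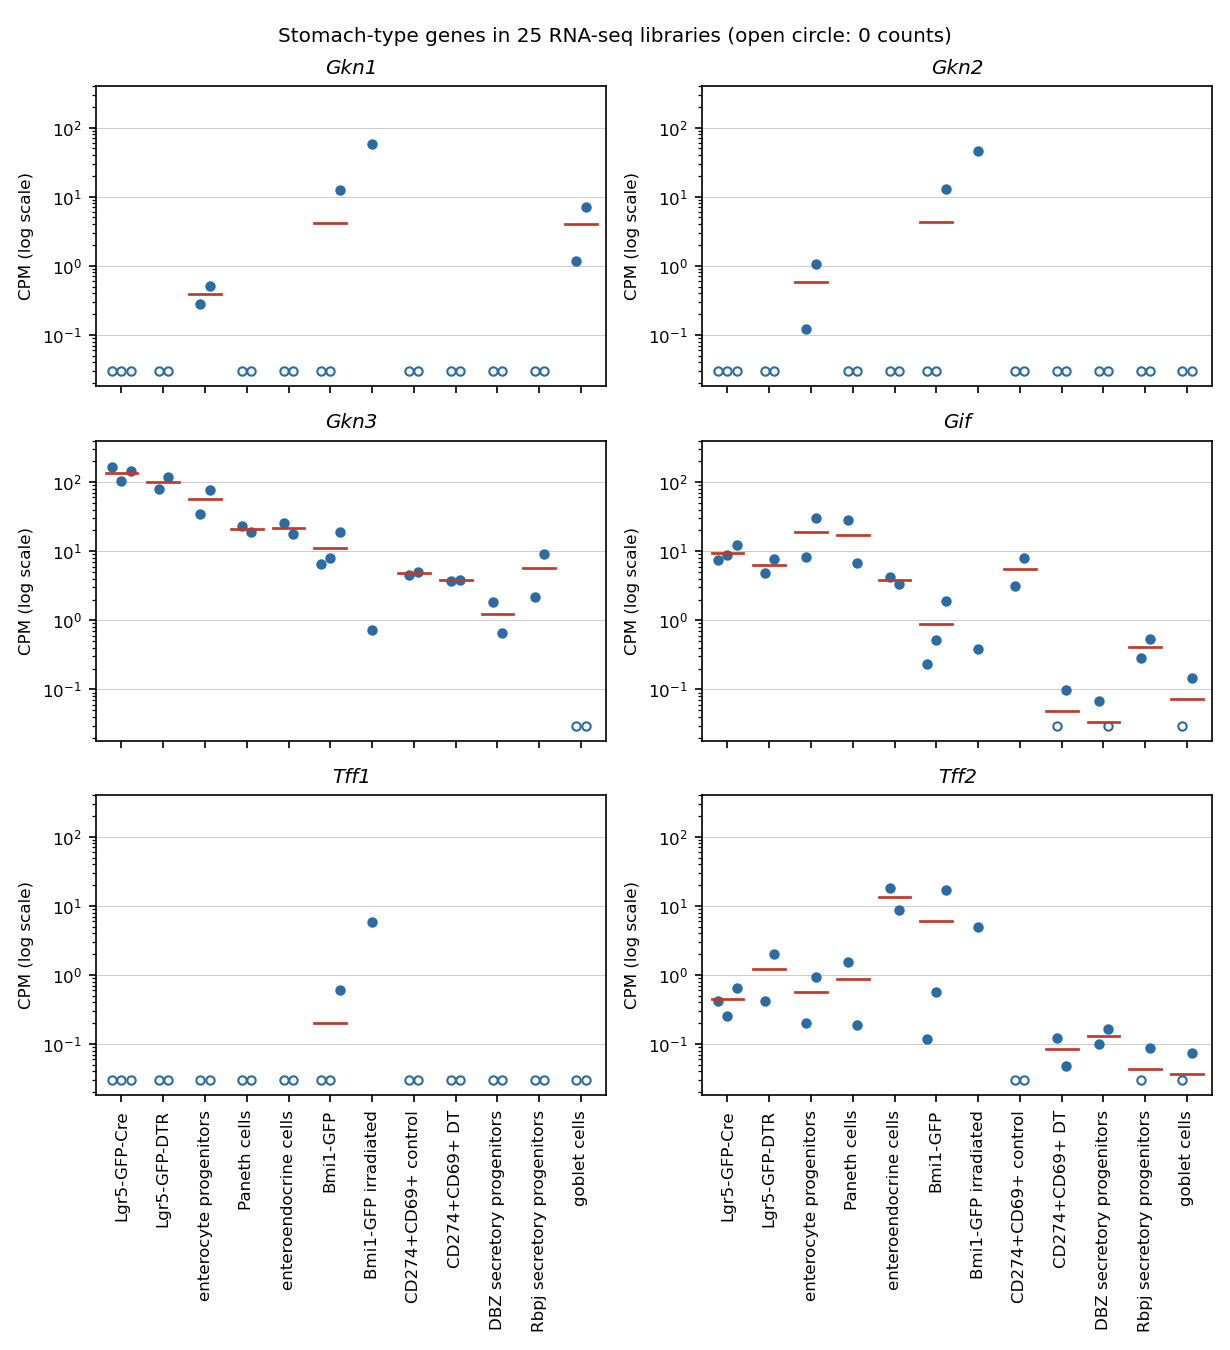
CPM of the 6 genes in each of 25 libraries (log axis), 1 point per library, with groups on the horizontal axis and a red line at the group mean where there are 2 or 3 libraries. Open circles are libraries with 0 counts, drawn at 0.03 CPM at the foot of each panel; Gkn3 has 2 of them, while Tff1 has 23.

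Order by group mean was Lgr5-GFP-Cre (138 ± 32.0 CPM, SD, n = 3), Lgr5-GFP-DTR (99.7 ± 27.2, n = 2), enterocyte progenitors (56.3 ± 30.3, n = 2), enteroendocrine cells (21.8 ± 5.84, n = 2), Paneth cells (20.9 ± 2.92, n = 2) and Bmi1-GFP cells (11.1 ± 6.67, n = 3). Then came Rbpj crypts (5.64 ± 4.88, n = 2), CD274+CD69+ cells without (4.83 ± 0.365, n = 2) and with DT (3.81 ± 0.114, n = 2), DBZ crypts (1.24 ± 0.831, n = 2), the irradiated library and goblet cells. The ranges of the 2 Lgr5-GFP groups overlapped, as did those of enteroendocrine and Paneth cells, of enteroendocrine and Bmi1-GFP cells, and of Rbpj crypts with Bmi1-GFP cells and with both CD274+CD69+ groups. Enterocyte progenitors fell just short of the Lgr5-GFP-DTR range, with 77.7 CPM against 80.5 CPM.

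Fitted log2 differences for Gkn3 were large against Lgr5-GFP-Cre cells. They were -3.62 (SE 0.49) for Bmi1-GFP, -2.66 (SE 0.55) for enteroendocrine, -2.72 (SE 0.56) for Paneth and -4.83 (SE 0.63) for CD274+CD69+ control cells, that is 12.3-fold, 6.33-fold, 6.60-fold and 28.5-fold lower. None of these groups overlapped the Lgr5-GFP-Cre libraries. These comparisons share the 3 Lgr5-GFP-Cre libraries. The Lgr5-GFP-DTR value of -0.47 (SE 0.50) was smaller than its error, and the libraries overlapped. Bmi1-GFP and Lgr5-GFP cells were both released with TrypLE, whereas the CD24 and CD274+CD69+ sorts used Dispase, so for the Dispase sorts the enzyme and the group cannot be told apart.

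Among whole crypts, Gkn3 was 44.5-fold lower in DBZ crypts than in enterocyte progenitors (log2 -5.48, SE 0.68) and 4.45-fold higher in Rbpj than in DBZ crypts (2.15, SE 0.64). Neither pair of groups overlapped, though the lower Rbpj library (2.19 CPM) came close to the higher DBZ library (1.83 CPM). Both Rbpj libraries used TruSeq and both DBZ libraries SMART-Seq, so kit and genotype cannot be told apart in that comparison. The Rbpj value was 0.73 without Rbpj replicate 2 and 3.05 without DBZ replicate 1. The DT difference in CD274+CD69+ cells (log2 -0.34, SE 0.60) was smaller than its error, although the 4 libraries did not overlap. Against the CD274+CD69+ controls, goblet cells were at least 42.3-fold lower, taking 3 counts over both libraries as the floor.

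Gkn3 moved with the stem cell genes in several contrasts but not at their size in each. Of 15 stem cell genes of a list (Lgr5, Olfm4, Ascl2 and others), all 15 were lower in Bmi1-GFP than in Lgr5-GFP-Cre cells by edgeR, where 50.4% of all genes were called, with a median log2 difference of -2.17. Their summed level was 1321 to 2098 CPM against 7363 to 9350 CPM. In Paneth cells the sum was 4581 and 3032 CPM, 6 of 15 were lower (40.7% of all genes called), and the median was -0.79, against -2.72 for Gkn3. There Lgr5 differed by 0.29 (SE 0.38, adjusted p = 0.567) and Ascl2, a stem cell transcription factor, by -2.63 (SE 0.41, adjusted p = 8.56e-05). In DBZ crypts against enterocyte progenitors, 1 of the 15 was lower and 1 higher (2.46% of all genes called); Lgr5 differed by 0.21 (SE 0.42, adjusted p = 0.966). Ascl2 fell by 1.61 (SE 0.41, adjusted p = 0.0438) in that contrast, and Gkn3 had a fitted difference of -5.48.

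**Figure D2:**
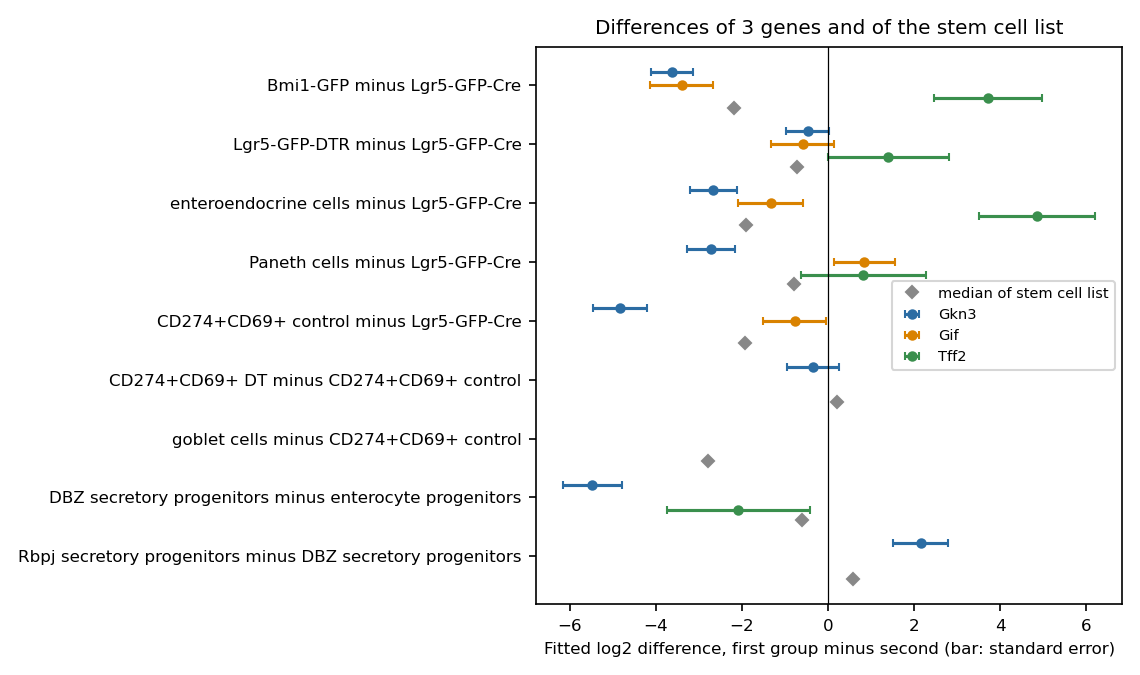
Fitted log2 difference of the first group minus the second for Gkn3, Gif and Tff2 (points, bars 1 standard error) and the median over 15 stem cell genes (diamonds), by comparison. A gene is left out where a group holds 3 counts or fewer; Gkn3 lies left of the stem cell median in the Bmi1-GFP, enteroendocrine, Paneth, CD274+CD69+ control, DT and DBZ rows and to its right in the Lgr5-GFP-DTR and Rbpj rows.

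Across all 25 libraries the log2 level of Gkn3 followed Olfm4 (Pearson r = 0.89) and Lgr5 (r = 0.82). The libraries share groups and depths, and the value is a description. Among 11908 genes that passed the filter and averaged 5 CPM or more in a group, the 5 most like Gkn3 were Bphl (r = 0.94), Ell3 (0.93), Ascl2 (0.93), Camk1 (0.93) and Angpt2 (0.92). At Olfm4 levels between 613 and 1135 CPM, where 12 libraries lie, Gkn3 ran from 1.83 to 25.9 CPM.

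**Figure D3:**
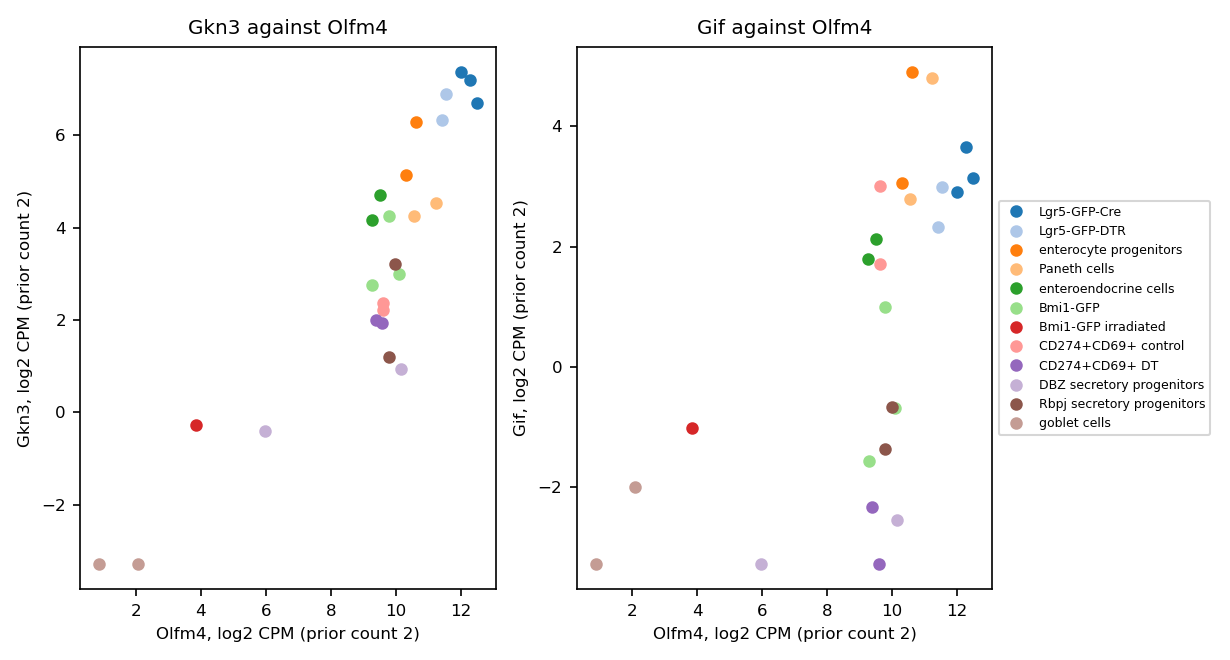
Log2 CPM (prior count 2) of Gkn3 on the left and Gif on the right against log2 CPM of Olfm4, 1 point per library, coloured by group. Lgr5-GFP libraries sit at the top right for Gkn3, while the highest Gif points are an enterocyte progenitor and a Paneth library.

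Gif was low but present in 22 of 25 libraries, and its highest levels were not in stem cells. Enterocyte progenitors had 8.18 and 30.0 CPM and Paneth cells 27.9 and 6.81 CPM, so the 2 replicates of each group were far apart. Lgr5-GFP-Cre cells were closer together at 7.44, 8.69 and 12.5 CPM, and Lgr5-GFP-DTR cells had 4.88 and 7.84 CPM. CD274+CD69+ control cells had 3.18 and 7.98 CPM and enteroendocrine cells 4.27 and 3.34 CPM. These 6 groups were neighbours whose ranges overlapped in turn, except that enteroendocrine cells lay below all libraries of the first 4.

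In the other 6 groups Gif did not exceed 1.88 CPM. Bmi1-GFP cells had 0.235, 0.518 and 1.88 CPM, the irradiated library 0.389 CPM, and Rbpj crypts 0.284 and 0.530 CPM. DT-treated CD274+CD69+ cells, goblet cells and DBZ crypts each held 2 counts over both libraries. The fitted log2 difference of Bmi1-GFP from Lgr5-GFP-Cre was -3.39 (SE 0.73), 10.5-fold lower, with no overlap. Enteroendocrine cells were lower by 1.33 (log2 -1.33, SE 0.75), also with no overlap. The Paneth value of 0.85 (SE 0.70) turned to -0.49 without Paneth replicate 1.

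In CD274+CD69+ cells Gif had lower counts after DT than without it. The 2 control libraries held 62 and 174 Gif counts, and the 2 DT libraries held 0 and 2 counts at similar depth. No fold is given against 2 counts. The summed level of 10 enterocyte genes was 14584 and 14695 CPM in the controls and 4740 and 9437 CPM after DT, and that of 8 Paneth cell genes 13985 and 16749 CPM against 8987 and 8590 CPM. None of these genes was called by edgeR, 4 of each list had an unadjusted p below 0.05, and the part of these differences in the Gif counts was not tested. In the same pair of groups the stomach genes outside the 6 had no call, as described further on, and Cubn, the cubilin part of the B12 receptor and picked after its values were seen, was at 13.6 and 15.5 CPM in the controls and 0.287 and 2.38 CPM after DT (log2 -3.48, SE 1.08, adjusted p = 0.354). Control replicate 1 was a TruSeq library and had the lower Gif level of the pair. The part of the kit in that gap was not tested.

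Across the 25 libraries the gene most like Gif was Gkn3 (r = 0.80), followed by Fstl1, Hnmt and Tpmt (0.77 each) and Pls3 (0.74). Its correlation was 0.63 with Olfm4 and 0.67 with Lgr5.

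Of 14 other genes of vitamin B12 uptake and use, 13 passed the filter. Against Lgr5-GFP-Cre cells, Bmi1-GFP cells had 1 higher and 2 lower (50.4% of all genes called), enteroendocrine cells 0 higher and 6 lower (45.9% of all genes called), Paneth cells 2 higher and 4 lower (40.7%), CD274+CD69+ controls 4 higher and 3 lower (45.3% of all genes called) and Lgr5-GFP-DTR cells 0 higher and 2 lower (20.5%). Cd320, the cellular receptor for transcobalamin-bound B12, fell by 2.28 in Bmi1-GFP cells (SE 0.25, adjusted p = 2.38e-06), with means of 23.2 ± 3.89 against 113 ± 25.5 CPM (n = 3 each). It fell by 1.36 in enteroendocrine cells (SE 0.27, adjusted p = 0.000636) and differed by -2.76 in CD274+CD69+ cells (SE 0.29, adjusted p = 1.24e-06). Mmachc, which processes B12 inside the cell, fell by 1.31 in Bmi1-GFP cells (SE 0.20, adjusted p = 6.18e-05). Lmbrd1, a lysosomal B12 exporter, rose by 0.76 in Bmi1-GFP cells (SE 0.21, adjusted p = 0.00559). Tcn2, the plasma B12 carrier, was at 234 ± 74.7 against 198 ± 24.9 CPM there (log2 0.24, SE 0.23, adjusted p = 0.379).

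In goblet against CD274+CD69+ control cells, 2 of these 13 genes rose and 6 fell, where 51.2% of all genes were called. Cd320 fell by 3.81 (SE 0.37, adjusted p = 1.75e-07) and Lmbrd1 rose by 1.24 (SE 0.25, adjusted p = 0.0005). In DBZ crypts against enterocyte progenitors 1 rose, where 2.46% of all genes were called. It was Amn, the amnionless part of the receptor, with a rise of 1.32 (SE 0.29, adjusted p = 0.0142). In Rbpj against DBZ crypts 1 fell, Mmadhc, by 0.63 (SE 0.17, adjusted p = 0.013), where 24.7% of all genes were called. DT gave no call among the 13 by edgeR, 4 having an unadjusted p below 0.05, and 0.175% of all genes were called.

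Gkn1 and Gkn2 were absent from most libraries and high in 2 of them. Gkn1 had counts in 6 libraries and Gkn2 in 4. The irradiated Bmi1-GFP library held 1036 Gkn1 and 822 Gkn2 counts, or 57.6 CPM (exact Poisson 95% interval 54.1 to 61.2, counting error only) and 45.7 CPM (42.6 to 48.9). Bmi1-GFP replicate 3 held 284 and 291 counts, or 12.4 and 12.7 CPM, whereas Bmi1-GFP replicates 1 and 2 held 0 of either. Those 2 libraries carried 90.8% of all Gkn1 counts and 96.9% of all Gkn2 counts. The irradiated condition has 1 library, so its difference from the unirradiated cells has no replicate check, and the unirradiated libraries themselves ran from 0 to 12.4 CPM for Gkn1 and from 0 to 12.7 CPM for Gkn2.

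Goblet cells parted the 2 neighbours. They held 15 and 95 Gkn1 counts (1.18 and 7.00 CPM) and 0 Gkn2 counts in both libraries. Enterocyte progenitors held 7 and 16 Gkn1 counts (0.281 and 0.508 CPM) and 3 and 33 Gkn2 counts (0.120 and 1.05 CPM). DBZ crypts held 0 counts of either, at least 7.13-fold below the enterocyte progenitor mean for Gkn1 and at least 10.6-fold for Gkn2. These bounds cover counting error in DBZ crypts only, and the Gkn2 mean rests mostly on enterocyte progenitor replicate 2. In the other 19 libraries Gkn1 was at 0, and Gkn2 was at 0 in 21. The Gkn1 mean in goblet cells was at least 56.3-fold above the CD274+CD69+ controls, which held 0 counts, with the floor again at 3 counts over both libraries. The spread of the goblet libraries is not in that bound.

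Gkn1 and Gkn2 passed the filter only through the libraries where they are high. Over 25 libraries their log2 levels gave r = 0.83, with 19 and 21 libraries at 0, and each was the gene most like the other. The next most like Gkn1 were Prdx5 (0.83), Phyh (0.81), Ppp2r5c (0.81) and Rnf128 (0.80), and the next most like Gkn2 were Slc25a3 (0.75), Khk (0.71), Scoc (0.70) and Gclm (0.69). Neither followed the third gene of the cluster: r with Gkn3 was -0.42 for Gkn1 and -0.07 for Gkn2. Bmp10, the next gene beyond Gkn3 at 40058 bp, had 0 counts in all 25 libraries.

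Levels of other cell types' genes differed in the libraries with Gkn1. The summed level of 10 enterocyte genes was 113514 CPM in the irradiated library, 108197 and 99322 CPM in goblet cells and 6683 to 18163 CPM in unirradiated Bmi1-GFP cells, all 10 being detected in each. It was highest among the 3 Bmi1-GFP replicates in replicate 3. It was 18821 CPM in DBZ replicate 2, which held 0 Gkn1 counts, and 6090 and 9161 CPM in enterocyte progenitors. The irradiated library had the second lowest TMM factor, 0.712, and without TMM its Gkn1 level was 41.0 CPM and its Gkn2 level 32.5 CPM. The part of these differences in the gastrokine levels was not tested.

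Tff1 had counts only in the 2 libraries where Gkn1 and Gkn2 were highest, and none in the goblet or enterocyte progenitor libraries with Gkn1 counts. It had 105 counts in the irradiated library (5.84 CPM, exact Poisson 95% interval 4.78 to 7.07), 14 counts in Bmi1-GFP replicate 3 (0.612 CPM) and 0 in the other 23 libraries. Muc5ac, the main mucin of stomach surface cells and chosen here after its values were seen, had counts in 3 libraries: 12.7 CPM in the irradiated library, 0.470 CPM in Bmi1-GFP replicate 1 and 0.437 CPM in replicate 3.

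Tff2 was highest in enteroendocrine cells and in 1 Bmi1-GFP library. It was at 18.3 and 8.57 CPM in enteroendocrine cells, above every other library except Bmi1-GFP replicate 3 at 17.2 CPM. The other Bmi1-GFP replicates had 0.118 and 0.570 CPM and the irradiated library 4.89 CPM. Lgr5-GFP-DTR cells had 0.416 and 2.01 CPM and Lgr5-GFP-Cre cells 0.413, 0.257 and 0.655 CPM. Paneth cells had 1.53 and 0.187 CPM, enterocyte progenitors 0.200 and 0.921 CPM, and no library of the 5 groups not yet named exceeded 0.162 CPM.

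The fitted log2 difference of Tff2 from Lgr5-GFP-Cre cells was 4.87 (SE 1.35) in enteroendocrine cells, with no overlap. For Bmi1-GFP cells it was 3.71 (SE 1.26), with overlap, and it turned to -0.36 without replicate 3, so the value rests on that library. The Lgr5-GFP-DTR value of 1.41 (SE 1.41) and the Paneth value of 0.82 (SE 1.45) were no larger than their errors. Genes most like Tff2 over 25 libraries were Ebpl (r = 0.79), D330023K18Rik, Stx8 and Cox17 (0.75 each) and Gm4013 (0.74).

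Tff3, the goblet cell trefoil, was present in every library, and its log2 level gave r = 0.11 with Tff2 over the 25 libraries. It ran from 416 to 5626 CPM in every library but the enterocyte progenitors, which held 11 and 26 counts (0.441 and 0.826 CPM). In DBZ crypts it rose by 11.07 on the log2 scale over enterocyte progenitors (SE 0.78, adjusted p = 6.4e-08). It also rose in enteroendocrine cells by 2.38 (SE 0.45, adjusted p = 0.000388) and in Paneth cells by 1.17 (SE 0.44, adjusted p = 0.0416) over Lgr5-GFP-Cre cells. The Paneth call was lost without Paneth replicate 1 (log2 0.42, adjusted p = 0.577), without Lgr5-GFP-Cre replicate 2 (0.88, adjusted p = 0.137) or replicate 3 (1.17, adjusted p = 0.0816) and with those 2 groups fitted alone (1.18, adjusted p = 0.110). Goblet cells rose by 2.24 over CD274+CD69+ controls (SE 0.52, adjusted p = 0.00133), with 2810 and 5626 CPM. Enterocyte progenitors, with almost no Tff3, had Tff2 counts of 5 and 29.

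**Figure D4:**
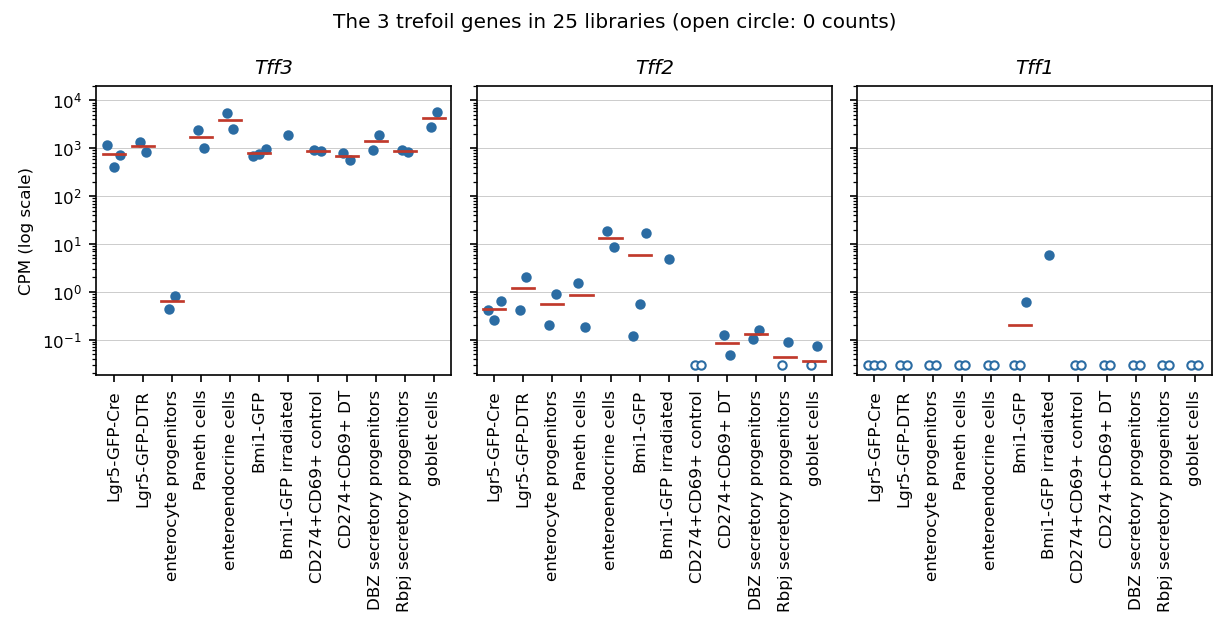
CPM of Tff3, Tff2 and Tff1 (1 shared log axis) in 25 libraries, 1 point per library, with a red line at the group mean where there are 2 or 3 libraries and open circles for 0 counts drawn at 0.03 CPM. Tff3 is at 416 CPM or more everywhere except in enterocyte progenitors, whereas Tff1 has counts in 2 libraries.

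Stomach genes outside the 6 were taken as a list of 33, of which 32 were in the table and 24 passed the filter. The list spans surface mucous, parietal, chief, gland mucous and endocrine genes and stomach transcription factors. The genes of acid and pepsin secretion were uneven. Atp4b, the beta subunit of the acid pump, and Slc26a7, a parietal chloride exchanger, had 4 and 0 counts in all libraries together, and the chief cell genes Lipf and Chia1 had 0. Atp4a, the alpha subunit of the pump, had counts in 25 of 25 libraries, up to 7.77 CPM, and Pgc, pepsinogen C, in 25 of 25, up to 70.1 CPM. Atp4b, Slc26a7, Lipf, Chia1 and Atp4a were picked after their values were seen. In all, 3 of the 32 had no counts anywhere and 7 stayed under 1 CPM in every library. Several others are known in the intestine too: Sst and Ghrl mark endocrine cells of both organs, Aqp4 is a crypt water channel, and Bhlha15, also called Mist1, is a secretory cell transcription factor. Ghrl is also 1 of the 10 enteroendocrine cell genes whose counts and sums are given below. Those values are therefore not independent of the Ghrl calls.

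In Bmi1-GFP against Lgr5-GFP-Cre cells, 8 of 24 rose and 4 fell by edgeR, 12 of 24 beside 50.4% of all genes. Ghrl, the ghrelin gene, rose by 7.04 (SE 0.43, adjusted p = 6.53e-09) to 2658 ± 280 CPM, and Sst, somatostatin, by 5.89 (SE 0.53, adjusted p = 7.29e-07). Ctse, a protease of stomach surface cells, rose from 0.0429 ± 0.0743 to 3.75 ± 1.84 CPM (n = 3 each, adjusted p = 0.000472). Bhlha15 fell by 2.01 (SE 0.40, adjusted p = 0.000562), Aqp4 fell by 1.34 (SE 0.31, adjusted p = 0.00165) and Foxq1, a stomach transcription factor, fell by 1.24 (SE 0.29, adjusted p = 0.00211). In the same contrast 10 of 10 enteroendocrine cell genes, Ghrl among them, rose (median log2 5.24), with a summed level of 7709 to 14281 CPM against 269 to 322 CPM. So did 6 of 7 tuft cell, 9 of 10 immune and 8 of 10 enterocyte genes, while 15 of 15 stem cell and 6 of 8 Paneth cell genes fell. Their part in the stomach gene differences was not tested. Pgc, the pepsinogen C gene, was at 47.9 ± 19.6 against 38.0 ± 24.2 CPM (adjusted p = 0.617). Anxa10 and Cldn18, also among the genes that rose, were picked after their values were seen. The Anxa10 call (adjusted p = 0.0308) was lost without Bmi1-GFP replicate 1 (0.127) and without Lgr5-GFP-Cre replicate 1 (0.0845) or 3 (0.108). Cldn18 (0.019) gave no adjusted p without Bmi1-GFP replicate 1 or 3. The count of 12 ran from 9 to 12 on leaving out 1 library.

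Bmi1-GFP replicate 3, the library with Gkn1, Gkn2, Tff1 and Tff2, also stood apart for Muc6 and Gast, which were chosen here after their values were seen. Muc6, the mucin of stomach glands and Brunner glands, was at 7.52 CPM there and at 0.0588 and 0.622 CPM in replicates 1 and 2. The Muc6 call (log2 4.45, SE 1.32, adjusted p = 0.00948) was lost without replicate 3 (1.48, adjusted p = 0.333). Gast, the gastrin gene, was at 52.3 CPM in replicate 3, 14.5 CPM in replicate 2 and 0.294 CPM in replicate 1, and its call (adjusted p = 0.00105) was lost with DESeq2 (adjusted p = 0.139). Without replicate 2, without replicate 3 or with the compared groups fitted alone, Gast no longer passed the filter. The irradiated library had 0.222 CPM of Muc6 and 0.445 CPM of Gast. It shared Gkn1, Gkn2 and Tff1 with replicate 3 but not the levels of Muc6 and Gast. Its Tff2 level was 4.89 CPM, against 17.2 CPM in replicate 3.

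Enteroendocrine cells had 8 higher and 2 lower of 24 against Lgr5-GFP-Cre cells, beside 45.9% of all genes. Ghrl rose by 6.82 (SE 0.44, adjusted p = 2.29e-08), Sst by 5.95 (SE 0.54, adjusted p = 5.7e-07), and Pga5, a pepsinogen, was at 1.07 ± 0.477 CPM (n = 2) against 0.0146 ± 0.0252 CPM (n = 3; adjusted p = 0.00232, lost with DESeq2 at 0.0604). Aqp4 fell by 1.73 (SE 0.36, adjusted p = 0.000879) and Foxq1 fell by 1.53 (SE 0.34, adjusted p = 0.00155). Pgc was at 15.6 ± 7.71 CPM (n = 2, adjusted p = 0.094). Other higher calls were lost in alternatives, and these genes were picked after their values were seen. Anxa10 went from log2 6.08 to -1.98 without enteroendocrine replicate 2. Without Lgr5-GFP-Cre replicate 3, Ctse (adjusted p = 0.124) and Atp4a (0.0559) were lost. Without Lgr5-GFP-Cre replicate 2, A4gnt was lost (0.0848). With those groups fitted alone, Glipr1 was lost (0.0552) and Anxa10 and Ctse gave no adjusted p. In the enteroendocrine cells 10 of 10 enteroendocrine and 7 of 7 tuft cell genes rose. So did 6 of 9 goblet cell and 6 of 10 immune genes, while 12 of 15 stem cell and 1 of 10 immune genes fell. The part of these was not tested.

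Paneth cells had 5 higher and 4 lower, beside 40.7%. Sst rose by 3.98 (SE 0.50, adjusted p = 1.26e-05), A4gnt, which caps the gland mucin sugar chains, by 2.45 (SE 0.44, adjusted p = 0.000282) and Ghrl by 1.84 (SE 0.37, adjusted p = 0.000817). Pdx1, the antral and duodenal transcription factor, fell by 2.37 (SE 0.43, adjusted p = 0.000297), Foxq1 fell by 1.55 (SE 0.35, adjusted p = 0.00178) and Pgc fell by 2.41 (SE 0.66, adjusted p = 0.00763). The Pgc call was lost without Paneth replicate 2 (-1.89, adjusted p = 0.104). In the same contrast 6 of 10 enteroendocrine and 6 of 7 tuft cell genes rose in Paneth cells. So did 8 of 9 goblet cell and 7 of 8 Paneth cell genes, while 6 of 15 stem cell genes fell. The part of these was not tested. Capn8, a stomach calpain, was at 11.9 ± 6.07 against 3.97 ± 1.41 CPM (adjusted p = 0.0543).

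Lgr5-GFP-DTR cells had 4 higher and 1 lower against Lgr5-GFP-Cre cells, beside 20.5% of all genes. A4gnt rose by 2.47 (SE 0.44, adjusted p = 0.000999), Bhlha15 by 2.13 (SE 0.42, adjusted p = 0.00197) and Pdia2 by 2.80 (SE 0.61, adjusted p = 0.00388). Hdc, the histamine-forming enzyme, was at 0 counts against 0.594 ± 0.379 CPM (adjusted p = 0.0386). Its call was lost without either Lgr5-GFP-DTR library (adjusted p = 0.122 and 0.149), without Lgr5-GFP-Cre replicate 2 (0.0914) or replicate 3 (0.0584), and with only the 2 groups fitted it gave no adjusted p. Aqp4 was at 65.8 ± 5.65 against 118 ± 23.7 CPM (adjusted p = 0.093). Summed Paneth genes were at 230305 and 165836 CPM in these cells against 40245 to 56597 CPM, all 8 detected, and the summed level of 7 tuft cell genes was 939 and 1317 CPM against 17.2 to 26.1 CPM. The part of these in the differences was not tested.

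CD274+CD69+ controls had 1 higher and 5 lower than Lgr5-GFP-Cre cells, beside 45.3%. Ctse was higher at 0.878 ± 0.139 CPM (n = 2, adjusted p = 0.0146). Pgc fell by 4.10 (SE 0.73, adjusted p = 0.000202), Aqp4 fell by 1.24 (SE 0.35, adjusted p = 0.00813) and Pdia2 fell by 2.25 (SE 0.68, adjusted p = 0.0123). The Ctse call was lost without control replicate 1 (adjusted p = 0.0535) and without Lgr5-GFP-Cre replicate 3 (0.0648), and the Aqp4 call without control replicate 2 (0.0763). The Pdia2 call was lost without either control library (0.0807 and 0.0848) and without Lgr5-GFP-Cre replicate 1 (0.0636). Foxq1 was at 31.3 ± 0.461 against 33.9 ± 12.0 CPM (adjusted p = 0.804). The count of 6 called genes fell to 3 without control replicate 1, to 2 without control replicate 2 and to 3 without Lgr5-GFP-Cre replicate 1. After DT none of the 24 was called by edgeR, 0 had an unadjusted p below 0.05 and DESeq2 called 0, beside 0.175% of all genes; Aqp4, the most abundant, was at 51.6 ± 13.6 against 50.1 ± 3.00 CPM.

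Goblet cells, where Gkn1 was detected without Gkn2 and Gkn3 was at 0, had 9 higher and 3 lower than CD274+CD69+ controls, beside 51.2%. Sst rose by 5.24 (SE 0.63, adjusted p = 2.02e-06) and Ghrl by 2.90 (SE 0.45, adjusted p = 2.76e-05). In the same contrast 9 of 10 enteroendocrine cell genes (median log2 2.64) and 7 of 7 tuft cell genes rose. So did 7 of 9 goblet cell and 7 of 10 enterocyte genes, while 12 of 15 stem cell genes fell. The part of these in the list was not tested. The enteroendocrine sum was 2594 and 2248 CPM in goblet cells and 405 and 341 CPM in the controls. Anxa10, an annexin of stomach surface cells, rose from 0.0257 ± 0.0363 to 31.4 ± 20.6 CPM (n = 2 each, adjusted p = 0.000238), with 16.9 and 46.0 CPM in the 2 libraries. Aqp4 fell by 3.17 (SE 0.42, adjusted p = 5.68e-06), the transcription factor Nkx6-3 fell from 5.27 ± 1.62 to 0.116 ± 0.0594 CPM (adjusted p = 0.00184) and Pdx1 fell by 1.15 (SE 0.42, adjusted p = 0.0288). The Pdx1 call was lost with DESeq2 size factors (-0.87, adjusted p = 0.095) and without any single library of the 2 groups (adjusted p = 0.0639 to 0.147). Bhlha15 was at 23.9 ± 8.80 against 18.1 ± 5.56 CPM (adjusted p = 0.499). The count of 12 fell to 7 without control replicate 1 and to 7 without control replicate 2. With DESeq2 size factors all genes shifted up by 0.25 in the median, and the calls over all genes went from 3233 higher and 4370 lower to 4096 higher and 3481 lower.

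DBZ crypts had 3 higher and 1 lower than enterocyte progenitors, beside 2.46%: Ghrl rose by 5.54 (SE 0.59, adjusted p = 1.02e-05), Bhlha15 by 5.47 (SE 0.61, adjusted p = 1.6e-05) and Sst by 4.60 (SE 0.65, adjusted p = 0.000275). All 10 enteroendocrine cell genes, all 8 Paneth cell genes and 8 of 9 goblet cell genes rose in the same contrast, and their part was not tested. Muc6 fell by 6.87 (SE 1.66, adjusted p = 0.0297), from 10.4 and 13.5 CPM in enterocyte progenitors to 0 and 0.203 CPM, and this call was lost without any single library of the 2 groups (adjusted p = 0.108 to 0.178). Aqp4 was at 56.1 ± 30.4 against 84.2 ± 8.48 CPM (adjusted p = 0.652). Both enterocyte progenitor libraries were above every other library for Muc6, and among whole crypts they were the only group with Gkn1 or Gkn2 counts. Rbpj crypts had 3 higher and 0 lower than DBZ crypts, beside 24.7%: Foxq1 rose by 2.22 (SE 0.42, adjusted p = 0.000799), Pdx1 by 1.89 (SE 0.54, adjusted p = 0.0154) and Hdc by 3.42 (SE 1.14, adjusted p = 0.0351). The Pdx1 and Hdc calls were each lost with those 2 groups fitted alone (adjusted p = 0.096 and 0.0665) and on leaving out any of 3 of the 4 libraries, with Pdx1 kept without Rbpj replicate 2 and Hdc without DBZ replicate 2. The count of 3 fell to 1 without DBZ replicate 1 and to 2 without any other library. Aqp4 was at 81.6 ± 9.08 against 56.1 ± 30.4 CPM (adjusted p = 0.321).

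**Figure D5:**
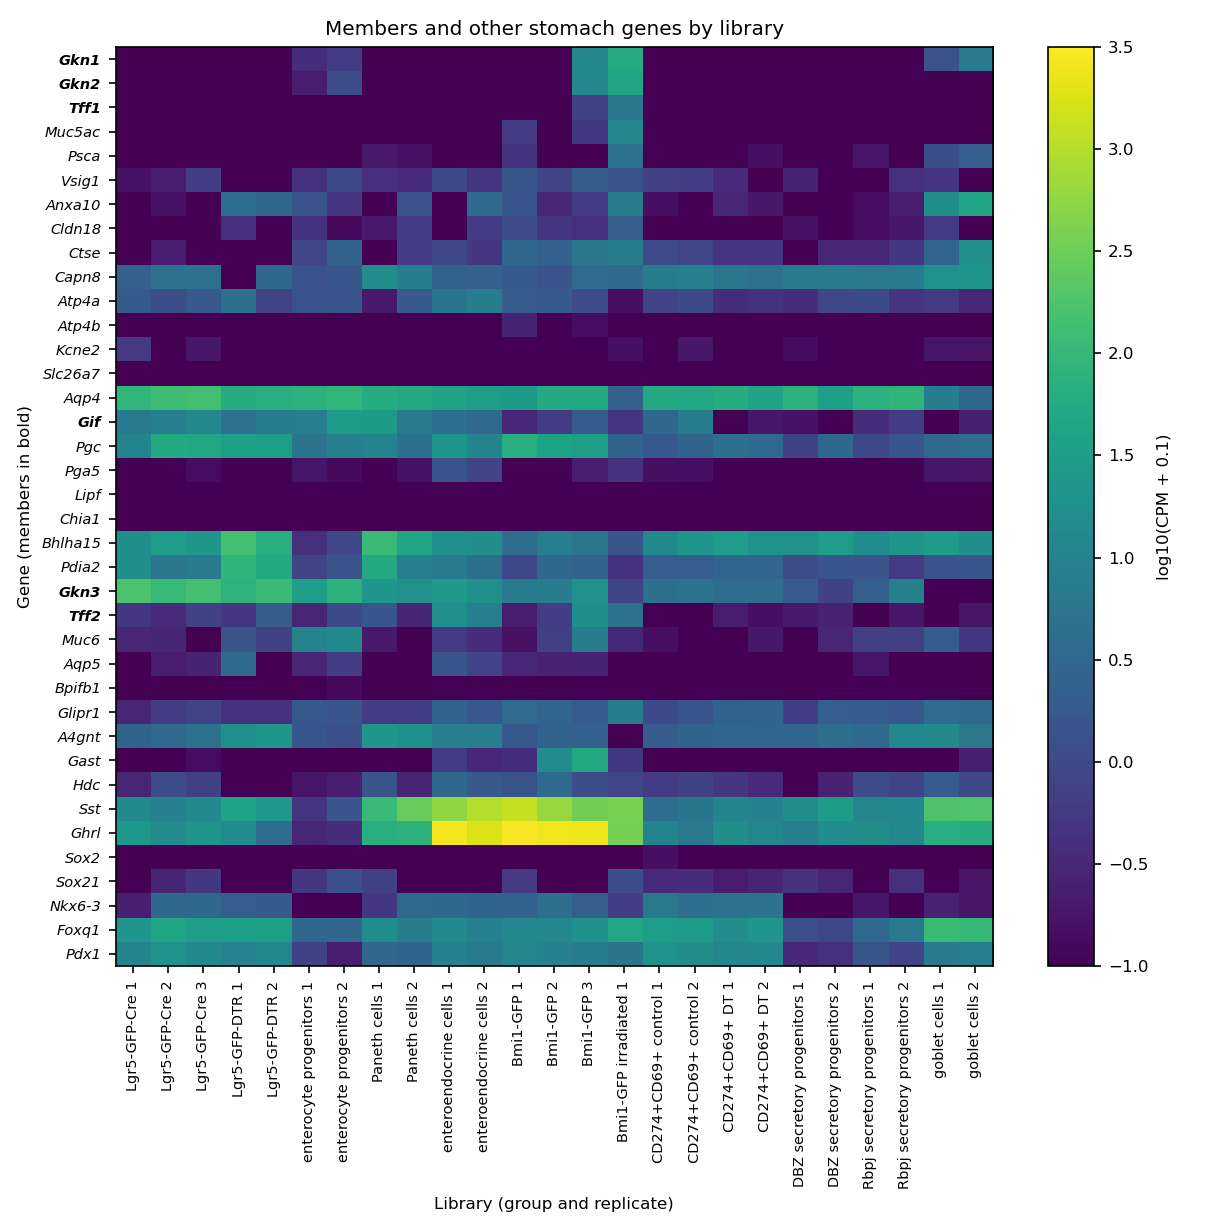
Log10 of CPM plus 0.1 for the 6 genes (bold) and the 32 other stomach genes in the table, in rows, over 25 libraries, in columns by group and replicate; yellow is high and dark blue is low. Gkn1, Gkn2, Tff1 and Muc5ac are brightest in the irradiated Bmi1-GFP column, and Slc26a7, Lipf and Chia1 are dark throughout.

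Sorted and unsorted libraries also differed in Pdx1, picked after its values were seen, which was at 2.75 to 20.1 CPM in the 19 sorted libraries and at 0.127 to 1.38 CPM in the 6 libraries of whole crypts, with no overlap. Of the other BRICHOS family genes, 3 of the 7 that the deposited counts include passed the filter. In goblet cells over CD274+CD69+ controls 1 of the 3 was called, beside 51.2% of all genes: Itm2b, which rose by 1.51 (SE 0.20, adjusted p = 5.53e-06). Itm2c rose by 0.84 in enteroendocrine cells (SE 0.24, adjusted p = 0.00752) and fell by 0.82 in Paneth cells (SE 0.25, adjusted p = 0.0132) and fell by 0.97 in CD274+CD69+ cells (SE 0.25, adjusted p = 0.00384) against Lgr5-GFP-Cre cells, the only call among the 3 in each of these contrasts, where 45.9%, 40.7% and 45.3% of all genes were called. Albumin (Alb), a liver gene checked as carry-over, was at 113 CPM in Bmi1-GFP replicate 1 and at 3.73 and 3.06 CPM in replicates 2 and 3. Of 10 pancreas acinar genes, 6, 2 and 8 were detected in replicates 1, 2 and 3, with summed levels of 25.5, 17.1 and 18.6 CPM. These values are for the unirradiated Bmi1-GFP libraries, and none are given here for the irradiated, goblet or enterocyte progenitor libraries. The part of such carry-over in the Gkn1 and Gkn2 levels was not tested.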

How the data were processed

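RNA-seq read counts per gene symbol were taken as deposited for 25 libraries in 12 groups; 24 further samples of the series were not analysed here. The authors worked with Bowtie2, TopHat2 2.0.6, DESeq2 and the mm10 genome, per the submitters' processing notes; for the counting program, the annotation and the use of strand, the sources used here give nothing. Libraries were grouped by the labels, which call replicates biological but name no animals, so p-values measure only the spread between these libraries. The members and gene lists were chosen with earlier results of these data known.

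Genes were filtered with edgeR 4.0.16 filterByExpr (14837 of 24062 kept) and scaled by TMM. A quasi-likelihood fit took all 24 libraries that have replicates (11 groups), with Benjamini-Hochberg adjustment over all 14837 genes and calls at 0.05. The irradiated group, with 1 library, entered no fit. Each standard error (SE) was worked back from the quasi-likelihood F statistic, as the size of the log2 difference over the square root of F. Levels are TMM-scaled CPM, and log2 levels use a prior count of 2. Differences resting on 3 counts or fewer in a group are given as bounds or left out. A bound sets the mean of the other group against 3 counts, so the spread of that group is not in it. No 2 replicates agreed within sampling noise: the chi-square per gene between replicates was 4.23 for the CD274+CD69+ control pair and 27.8 or more for every other pair. From the stomach list the text names, per comparison, up to 3 called genes in each direction by lowest adjusted p and the most abundant gene not called. Stomach genes outside this rule, and Cubn, are marked as picked with their values in view. From the other lists fewer genes are named, and in some comparisons none, so those names do not show every call. Tff3, Bmp10 and the checks Lgr5, Olfm4, Lyz1 and Alb are named throughout. Names of genes most like a member come from Pearson correlation over 25 libraries. The test was run on simulated counts for Bmi1-GFP against Lgr5-GFP-Cre cells only. That simulation used a single dispersion for all genes and placed changes only in well-counted genes. It does not cover groups of 2 libraries or genes at low counts. Alternatives were DESeq2 1.42.0 size factors and its Wald test, no filter, the compared groups alone, the replicate number as a block and leaving out each library. Sequences are from RefSeq (GRCm38.p6): 6 of 6 members matched by symbol or synonym, and 4 had a promoter window.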

Additional observations from a re-analysis of the deposited data

How the results depend on the processing

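The Gkn3 differences kept their sign in 78 of 78 alternatives. All 78 moved by less than the library SDs of both groups combined. With 2 or 3 libraries per group, leaving out 1 can hardly exceed that bar, so it says little on stability. The Rbpj against DBZ value ran from 0.73 to 3.05. The number of other stomach genes called stayed within 1.5 times in 79 of 87 alternatives. For CD274+CD69+ controls against Lgr5-GFP-Cre cells it was 6 and ran from 2 to 6 on leaving out 1 library. For goblet cells it was 12 and ran from 7 to 9 on leaving out 1 library. For DBZ crypts against enterocyte progenitors it was 4, was 7 with the DESeq2 Wald test and was 3 on leaving out any library. For Rbpj against DBZ crypts it was 3, was 1 with those groups fitted alone and ran from 1 to 2 on leaving out 1 library. Of the 5 genes most like each member, 1 for Gkn1, 2 for Gkn2, 2 for Gkn3, 2 for Gif and 3 for Tff2 were shared when group means replaced libraries. The cause of these changes was not tested.

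Over all genes, the 3049 calls for Lgr5-GFP-DTR cells became 482 with those groups fitted alone, and the 26 calls for DT became 425 likewise, 121 with DESeq2 and 56 without the filter. Libraries with the same replicate number did not deviate together (r -0.07 to 0.13), so the numbers give no pairing. With the replicate number as a block the counts of stomach genes called were 11 for Bmi1-GFP, 5 for Lgr5-GFP-DTR, 10 for enteroendocrine, 9 for Paneth and 6 for CD274+CD69+ control cells, 0 for DT, 12 for goblet cells, 4 for DBZ and 2 for Rbpj crypts. Under that block Gkn3 differed by -3.79 for Bmi1-GFP cells, Tff2 by 1.97 in place of 3.71, and Muc6 lost its call there (adjusted p = 0.0874); Hdc lost its calls for Lgr5-GFP-DTR cells (0.051) and Rbpj crypts (0.0503). Depth limits the low members: with 0 counts, a level up to 0.318 CPM could go unseen in the shallowest library.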
